A study of Mus musculus with 8 samples.

Results

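The genes described here had a log2 signal that differed at least 8-fold, 3 log2 units or more, between the highest and the lowest of 8 samples of mouse B-lymphoid cells, without dividing the c-jun knockout samples from the wild-type samples. Of 19937 genes measured, 194 had a range that wide, which is 0.973% of the genes. The signals of 3 of them, Jun, Cdk6 and Septin10, separated the genotypes completely and were left out; over all genes the knockout samples lay above the wild-type samples without overlap in 0.266% and below them in 1.03%. Of the other 191, 14 lay on chromosome X or Y, 4 belonged to symbol classes left out by rule (predicted genes, olfactory receptors and RIKEN clones) and 5 were Cdkn2a, Il2ra, Dntt, Rag1 and Rag2, which were also left out. The remaining 168 genes, 0.843% of those measured, are described below. They were chosen by the measured log2 signals of all 8 samples, so the ranges, the overlap of the genotypes and the states given below are descriptions and carry no test.

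The samples comprised 4 labelled c-jun knock out and 4 labelled wild type, all with the strain label SW129/C57BL/6J and the cell type label B-lymphoid, and the title of the series places them in a study of BCR-ABL induced lymphoid leukemia. Samples are numbered within a genotype by their order of deposit. Knockout samples 1 and 2 and wild-type samples 1 and 2 have titles that begin with RO, and knockout samples 3 and 4 and wild-type samples 3 and 4 have titles that begin with D or F. These title schemes are called RO and D/F below; the labels do not call them batches. The labels do not say how the deletion was made, whether each sample is a separate line, clone, culture or animal, whether animals were pooled, or at what age cells were taken. Spread between samples may therefore be technical in part, and the p-values below measure that spread only. RNA was hybridized to MoGene 1.0 ST arrays, which carry probes along each transcript. With 1 array per sample and no detection calls used, the number of arrays limits the precision, and "high" and "low" below refer to signal and do not say that a gene was on or off.

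Jun, the deleted gene, had log2 signals of 6.99, 6.46, 7.02 and 6.97 in the knockouts, against 8.82, 8.84, 10.55 and 8.77 in wild type. Cdk6, a G1 cyclin-dependent kinase named in the title of the series, stood at 9.69, 8.66, 10.11 and 6.79 in the knockouts, against 11.11, 11.002, 11.50 and 11.58 in wild type. All wild-type samples lay above all knockout samples for both genes. The labelled cell type was checked on 17 genes that define the B lineage, such as Cd79a and Pax5, of which 14 were above the array median on all 8 arrays and 0 were below it on all 8. Array medians lay between 6.93 and 7.42. The mean of the B-lineage genes was 10.97 to 11.54 in the knockout samples and 10.78 to 11.37 in the wild-type samples. Of 22 measured myeloid genes 12, and of 19 T and NK cell genes 10, were below the array median on all arrays. The shares of all genes above or below the median on all arrays were not counted, so these counts are descriptions without a background.

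As background, c-Jun is a subunit of the AP-1 transcription factors, which pair Jun and Fos family proteins, and BCR-ABL is a fusion tyrosine kinase that transforms precursors of B cells. Such precursors express the pre-B-cell receptor and the interleukin 7 receptor and are still able to rearrange immunoglobulin genes. The genes below include Il7r and Enpep, which such precursors are known to express, together with other surface receptors, secreted proteins, enzymes, transporters and signalling proteins.

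The range over the 8 samples ran from 3.02 to 6.98 log2 among the 168 genes, with a median of 3.57, against a median of 0.749 for all measured genes. Just inside the threshold were Gimap3 at 3.02, Stard10 at 3.04 and Cyth3 at 3.05, and just outside were Gramd3, Ublcp1 and Msrb3 at 2.98 each. A range of at least 4 was held by 44 genes and of at least 5 by 6 genes. Each gene was given a high and a low state by dividing its 8 sorted values at the widest gap, provided that the gap was at least 1 log2. That rule gave a state to 151 genes, and the other 17 were graded. In 67 of the genes with a state, every low sample was under its own array median. Where the division was made at the midpoint of the range instead, 101 of the 151 genes kept the same set of high samples.

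**Figure D1:**
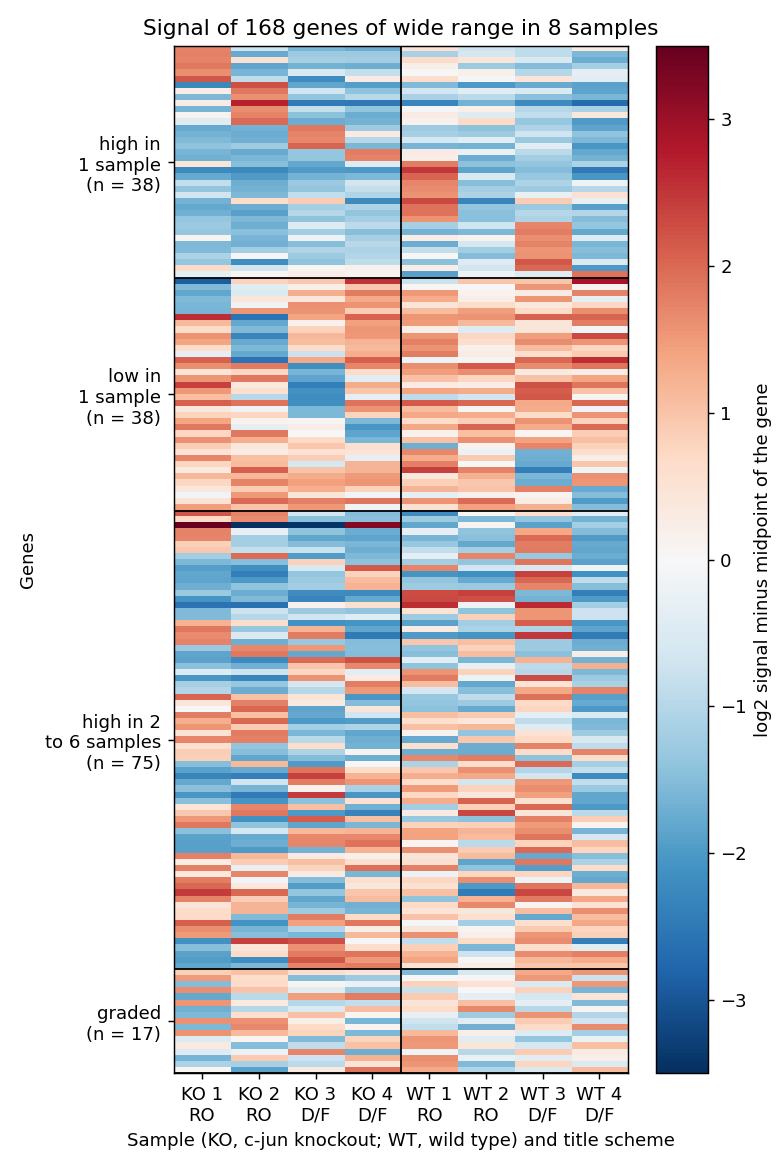
Log2 signal of the 168 genes (rows, in blocks of genes high in 1 sample, low in 1 sample, high in 2 to 6 samples, and graded) in the 8 samples (columns, knockout left of wild type), as the difference from the midpoint of each gene's own range. Red cells are above and blue cells below the midpoint; in 38 of the 76 genes that set 1 sample apart, that sample is the single red or the single blue cell of its row.

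The 151 genes fell into 70 patterns of high and low samples, of which 43 were held by 1 gene each. In 38 genes 1 sample was high and the other 7 low, and in another 38 genes 1 sample was low and the other 7 high. These 76 genes make up 50.3% of those with a state. Between these ends, 18 genes were high in 2 samples, 12 in 3, 18 in 4, 8 in 5 and 19 in 6. Of the 76 genes, 38 also set the same sample apart at the midpoint, 18 as high and 20 as low. In knockout samples 1 to 4 the genes kept were 1, 2, 3 and 0 as high and 1, 5, 6 and 3 as low. In wild-type samples 1 to 4 they were 7, 0, 5 and 0 as high and 1, 0, 2 and 2 as low. The counts per sample below use the widest gap.

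**Figure D2:**
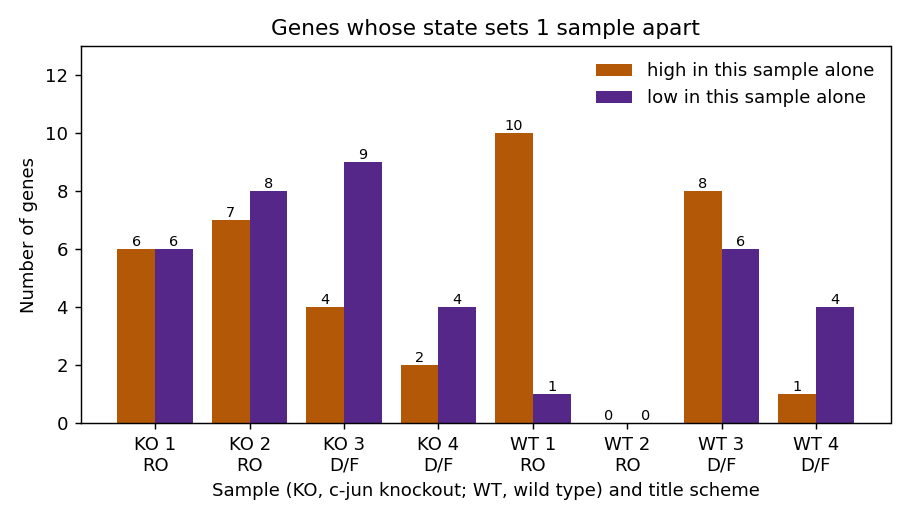
Number of genes (vertical axis) whose widest gap set 1 sample apart as the high one (orange) or the low one (purple), for each of the 8 samples (horizontal axis, knockout left of wild type). Knockout sample 3 had the most genes low in it alone (9), wild-type sample 1 had 10 high and 1 low, and wild-type sample 2 had none of either kind.

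Knockout sample 3 was alone in the low state for 9 genes and alone in the high state for 4. Akip1, a protein that binds the catalytic subunit of protein kinase A, was at 10.26, 10.45, 6.49 and 10.35 in the knockouts, against 10.25, 10.77, 10.29 and 10.50 in wild type. Poglut1, which adds glucose to the extracellular repeats of Notch receptors, was at 10.21, 10.03, 5.96 and 10.01 in the knockouts, against 10.28, 10.15, 9.45 and 10.13 in wild type. Plscr1, a phospholipid scramblase induced by interferon, was at 10.66, 9.71, 7.04 and 10.11 in the knockouts, against 10.52, 10.44, 11.26 and 10.15 in wild type. For each of these 3 genes the other 7 samples lay close together and knockout sample 3 was more than 2 log2 below all of them. Plod2, a lysyl hydroxylase that modifies collagen, and Plscr4, a relative of Plscr1, were also lowest in this sample, at 5.62 and 6.51, against 8.24 to 10.38 and 7.70 to 10.85 in the other 7. The other 4 genes low in it alone were Atox1, a copper chaperone, Lgr4, a receptor for R-spondins, Slc38a7, an amino acid transporter, and Zfp770, a zinc finger protein. Zfp770 was at 6.68 there, against 8.90 to 9.84 in the other 7 samples.

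Of the genes high in knockout sample 3 alone, Zcwpw1, a histone methylation reader used in meiosis, was at 7.46, 7.62, 10.91 and 7.26 in the knockouts, against 7.24, 7.20, 8.49 and 6.82 in wild type. Klri1, a killer-cell lectin-like receptor, was at 5.62, 5.72, 9.23 and 6.09 in the knockouts, against 6.10, 5.94, 6.28 and 5.52 in wild type. Scel, a protein of the cornified envelope of epithelia, was at 5.84, 5.69, 9.08 and 6.37 in the knockouts, against 6.78, 7.005, 6.08 and 5.80 in wild type. In all 3 the sample stood more than 2 log2 above the next. Plscr2, the fourth, was at 8.95 there and at 7.51 in knockout sample 4, against 6.53 or less in the others.

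Knockout sample 2 held 8 genes that were low in it alone and 7 that were high in it alone. Arhgap42, a GTPase-activating protein, was at 10.63, 5.48, 9.42 and 10.12 in the knockouts, against 9.59, 9.62, 10.11 and 10.08 in wild type. Rgs18, a regulator of G protein signalling found in blood cells, was at 10.49, 5.85, 9.77 and 10.52 in the knockouts, against 8.25, 8.53, 10.43 and 10.99 in wild type. Eng, or endoglin, a co-receptor of the transforming growth factor beta family, was at 11.06, 7.18, 10.65 and 10.99 in the knockouts, against 11.03, 10.19, 10.96 and 11.78 in wild type. Knockout sample 2 was below 8 in all 3 genes, and the other 7 samples were above 8. The remaining genes low in it alone were Atxn1, Egr1, an immediate-early transcription factor, Fads2, a fatty acid desaturase, Mdfic and Myl4, an atrial myosin light chain. Fads2 was at 8.28, against 10.66 to 11.82 elsewhere, and Atxn1 at 5.85, against 7.80 to 9.44.

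Of the genes high in knockout sample 2 alone, Pla2g7, which inactivates platelet-activating factor, was at 8.69, 11.11, 5.95 and 5.92 in the knockouts, against 6.15, 6.76, 6.19 and 5.73 in wild type. Lpl, lipoprotein lipase, was at 6.33, 9.51, 6.52 and 6.94 in the knockouts, against 6.75, 6.95, 6.44 and 6.28 in wild type. BC018473, for which no function is given here, was at 6.26, 10.77, 6.71 and 6.59 in the knockouts, against 6.97, 6.502, 6.76 and 6.64 in wild type. Pla2g7 was also above the other samples in knockout sample 1, whereas Lpl and BC018473 were near 7 or lower in all 7 other samples. The other genes high in knockout sample 2 alone were Igf1, a growth factor, Ramp2, a partner of the calcitonin receptor-like receptor, Rdh10, a retinol dehydrogenase, and Vav3, a guanine nucleotide exchange factor. Their signals there lay between 9.75 and 12.12.

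Knockout sample 1 stood apart in 12 genes, 6 in each direction, of which Ighm and Sptbn1 alone also set it apart at the midpoint. Enpep, glutamyl aminopeptidase, known as the BP-1 antigen of early B-lineage cells, was at 6.82, 10.52, 10.66 and 12.23 in the knockouts, against 8.95, 10.68, 10.67 and 12.59 in wild type. Sptbn1, a beta spectrin, was at 6.80, 9.97, 9.99 and 9.30 in the knockouts, against 9.52, 9.88, 9.11 and 10.03 in wild type. Pag1, an adaptor of lipid rafts that binds the kinase Csk, was at 6.39, 7.87, 9.61 and 9.58 in the knockouts, against 8.45, 8.65, 8.36 and 8.73 in wild type. Enpep had the widest range of these, and wild-type sample 1 was the next lowest. Gsn, an actin-severing protein, Haao, an enzyme of tryptophan breakdown, and Nr2c1, an orphan nuclear receptor, were the other 3 genes low in knockout sample 1 alone, at 7.58, 7.39 and 5.71.

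On the high side of knockout sample 1 stood Ighm, the constant region of the immunoglobulin mu heavy chain, at 9.97, 6.42, 6.93 and 6.92 in the knockouts, against 7.07, 7.60, 7.30 and 6.63 in wild type. Ly6f, a GPI-anchored protein of the Ly6 family, was at 9.97, 6.26, 6.45 and 6.42 in the knockouts, against 8.33, 6.83, 6.61 and 6.94 in wild type. Prelid2 was at 10.997, 7.93, 6.63 and 9.10 in the knockouts, against 9.42, 8.76, 9.27 and 8.43 in wild type. Ighm was below 8 in the other 7 samples, while Ly6f was intermediate in wild-type sample 1 and Prelid2 varied among the other 7. Ly6 genes are alike in sequence, so the signal of Ly6f may include that of relatives. The state of Ighm rests on 1 probe set, since its other 2 probe sets did not set knockout sample 1 apart, at 7.06 and 5.48 there. Gng4, a G protein gamma subunit, Jhy and Plxdc2 were the other 3.

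Knockout sample 4 had fewer genes of its own. Tmbim4, a membrane protein that counters apoptosis, was at 11.09, 10.76, 10.19 and 7.87 in the knockouts, against 10.49, 11.07, 10.90 and 10.54 in wild type. Sema3a, a secreted semaphorin, was at 8.71, 9.82, 7.99 and 6.12 in the knockouts, against 8.12, 9.04, 8.03 and 8.84 in wild type. Ogfrl1 was at 9.94, 7.77, 8.35 and 6.07 in the knockouts, against 9.46, 10.13, 9.41 and 10.07 in wild type. In all 3 knockout sample 4 was the lowest by more than 1 log2. Car2, carbonic anhydrase 2, was the fourth, at 12.48, 11.24, 11.16 and 9.54 in the knockouts, against 11.75, 11.98, 12.69 and 11.92 in wild type. High in knockout sample 4 alone were Rgs7bp, which anchors regulators of G protein signalling, at 9.92, and Rps4l, a ribosomal protein S4 relative, at 10.98, with wild-type sample 1 next at 8.42 and 9.47.

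Wild-type sample 1 was alone in the high state for 10 genes and in the low state for 1. Gldc, the decarboxylase of the glycine cleavage system, was at 6.67, 6.62, 6.91 and 6.88 in the knockouts, against 11.37, 7.04, 7.36 and 6.398 in wild type. Stag3, a cohesin subunit used in meiosis, was at 6.36, 6.42, 6.96 and 7.07 in the knockouts, against 10.05, 6.77, 6.84 and 6.24 in wild type. Tph1, tryptophan hydroxylase of serotonin synthesis, was at 6.003, 5.77, 6.68 and 6.29 in the knockouts, against 9.58, 6.21, 6.69 and 6.66 in wild type. The other 7 samples were near or below their array medians for these genes. Gnai1, an inhibitory G protein alpha subunit, was at 10.36, against 6.28 to 7.78 in the other 7 samples. Tppp3, which promotes tubulin polymerization, was at 10.43, against 7.31 to 7.79, and Lmo7 at 9.30, against 5.97 to 6.81. H2-DMa, which loads peptides on class II molecules, was at 9.94, against 6.55 to 8.06. Aldoc, a glycolytic aldolase, Padi2, a peptidylarginine deiminase, and Sema7a, a membrane-anchored semaphorin, made up the 10. Ifi209, an interferon-inducible gene of the p200 cluster, was low only here, at 7.12, against 8.96 to 10.52.

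Wild-type sample 3 was alone in the high state for 8 genes and in the low state for 6. Sh2d1b1, the adaptor EAT-2 of SLAM-family receptors, was at 6.18, 5.35, 6.13 and 6.65 in the knockouts, against 6.06, 7.07, 9.71 and 7.03 in wild type. Ccl9, a chemokine, was at 6.63, 6.53, 6.79 and 6.51 in the knockouts, against 6.33, 6.43, 9.77 and 6.21 in wild type. Nlrp1a, an inflammasome sensor, was at 5.52, 5.83, 6.002 and 5.94 in the knockouts, against 6.20, 5.84, 8.58 and 5.56 in wild type. Wild-type sample 3 was more than 2 log2 above the next sample in all 3. Slamf7, a SLAM-family receptor, was at 8.67, 7.31, 8.06 and 8.15 in the knockouts, against 8.25, 7.35, 10.01 and 5.98 in wild type, with wild-type sample 4 as its lowest. Akr1c12, an aldo-keto reductase, Ext1, which elongates heparan sulfate, Gapt, an adaptor that binds Grb2, and Prl2c5, a prolactin family gene, were the others. Akr1c12 and Prl2c5 belong to clusters of similar genes and their signals may include those of relatives.

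Among the genes low in wild-type sample 3 alone, Ifi30, a thiol reductase of antigen processing, was at 10.77, 12.53, 11.45 and 11.63 in the knockouts, against 12.83, 12.18, 8.04 and 10.32 in wild type. H2-Ab1, a class II beta chain, was at 9.41, 9.75, 8.05 and 9.84 in the knockouts, against 10.43, 8.65, 6.88 and 9.62 in wild type. Pcgf6, a Polycomb RING finger protein, was at 9.43, 9.45, 9.57 and 9.75 in the knockouts, against 8.66, 9.52, 6.66 and 9.88 in wild type. The 3 genes reached their minimum in the same sample, although knockout sample 3 was also near 8 for H2-Ab1. Zfp518a, a zinc finger protein, was at 7.95, 8.98, 8.65 and 8.77 in the knockouts, against 8.07, 8.18, 5.48 and 8.76 in wild type. Bdh1, of ketone body metabolism, and Gria2, a glutamate receptor subunit, completed the set, at 7.18 and 5.63.

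Wild-type sample 4 was alone in the low state for 4 genes. Rnf125, a ubiquitin ligase, was at 9.20, 10.67, 10.45 and 10.54 in the knockouts, against 10.26, 10.67, 8.93 and 6.68 in wild type. Dyrk4, a protein kinase, was at 8.61, 9.10, 9.48 and 9.004 in the knockouts, against 9.38, 9.22, 9.98 and 6.44 in wild type. Tmsb10, which binds actin monomers, was at 12.39, 11.93, 12.46 and 10.82 in the knockouts, against 11.46, 12.38, 12.17 and 9.41 in wild type. Tmsb10 stayed well above the array median even in its lowest sample, so its low state is a lower level of an abundant transcript. Raet1d, a ligand of the NKG2D receptor, was the fourth, at 6.45, against 7.62 to 9.50. Bmi1, a Polycomb protein, was the 1 gene high in this sample alone, at 12.31, against 8.53 to 10.66 in the other 7, with wild-type sample 1 lowest at 8.53.

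In 18 genes 2 samples shared the high state. Knockout sample 1 and wild-type sample 3 were jointly high for Erc1, Fcrl6, Smoc1 and Trpc4. Fcrl6, an Fc receptor-like protein of lymphocytes, was at 10.15, 7.25, 6.63 and 6.60 in the knockouts, against 6.82, 6.98, 10.43 and 6.45 in wild type. Smoc1, a secreted calcium-binding matrix protein, was at 9.45, 7.42, 7.10 and 7.01 in the knockouts, against 7.30, 6.83, 10.41 and 6.86 in wild type. Trpc4, a cation channel, was at 9.42, 7.66, 7.70 and 6.77 in the knockouts, against 7.61, 7.30, 10.30 and 6.65 in wild type. Knockout sample 1 and wild-type sample 3 differ in both genotype and title scheme. For Erc1, a synaptic scaffold protein, 1 further probe set held the same samples high and another did not.

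Knockout sample 4 and wild-type sample 3, both of the D/F scheme, were jointly high for Klrb1c, Rbm44 and Snx7. Klrb1c, the NK1.1 antigen of natural killer cells, was at 6.32, 5.73, 6.78 and 8.93 in the knockouts, against 6.08, 5.99, 10.54 and 6.02 in wild type. Rbm44, an RNA-binding protein of germ cells, was at 5.79, 5.62, 6.36 and 8.71 in the knockouts, against 6.27, 5.87, 9.65 and 6.75 in wild type. Snx7, a sorting nexin, was at 5.30, 5.60, 5.80 and 8.23 in the knockouts, against 5.78, 5.72, 8.73 and 5.52 in wild type. In each gene wild-type sample 3 was the higher of the pair. Klrd1, or CD94, a partner of NKG2 receptors, was high in knockout sample 3 and wild-type sample 3, at 5.501, 5.59, 7.89 and 5.62 in the knockouts, against 5.86, 5.68, 8.94 and 5.20 in wild type.

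Because Klrb1c, Klrd1 and Klri1 are best known from natural killer cells, a list of 19 T and NK cell genes that holds Klrb1c and Klrd1 was examined. Apart from Klrb1c and Klrd1, none of these had a range of 2 log2 or more. Nkg7 was at 6.17, 6.17, 6.61 and 6.49 in the knockouts, against 6.63, 6.66, 7.28 and 6.404 in wild type. Prf1, perforin, was at 7.17, 6.98, 7.41 and 7.47 in the knockouts, against 7.55, 7.34, 7.88 and 7.01 in wild type. The mean of the list, with Klrb1c and Klrd1 in it, was 6.63 to 7.05 in the knockout samples, against 6.66 to 7.55 in wild type. Wild-type sample 3 was highest, and it also had the highest array median, at 7.42, so no cell type is read from this mean. The part of other cells in the signals of Klrb1c and Klrd1 was not tested. In RNA from a whole sample, a smaller share of cells that carry a transcript and less of it per cell cannot be told apart.

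Mgst1, a microsomal glutathione transferase, was high in knockout sample 2 and wild-type sample 2, both of the RO scheme, at 6.05, 9.24, 5.30 and 5.71 in the knockouts, against 6.94, 8.97, 5.95 and 5.53 in wild type. Fcgr3, a low-affinity receptor for IgG, was at 6.995, 7.55, 7.85 and 8.12 in the knockouts, against 7.30, 9.39, 10.09 and 7.80 in wild type. Ifitm1, an interferon-induced membrane protein, was at 6.73, 6.71, 9.48 and 9.90 in the knockouts, against 11.90, 9.16, 11.93 and 8.14 in wild type. Fcgr3 was high in wild-type samples 2 and 3, and Ifitm1 in wild-type samples 1 and 3 with the RO knockout samples lowest and the others between. Neto2, an auxiliary subunit of kainate receptors, was high in wild-type samples 1 and 3, and AA467197 in knockout sample 4 and wild-type sample 1.

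The widest range of all belonged to Trgv1, a variable segment of the T cell receptor gamma locus. Its signal was 12.46, 5.47, 5.52 and 12.17 in the knockouts, against 7.15, 9.06, 7.08 and 7.77 in wild type. Knockout samples 1 and 4 were above 12, knockout samples 2 and 3 were below 6, and the wild-type samples lay between, so the knockout samples held both the highest and the lowest values.

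In 14 of the 151 genes, 9.27%, both samples of every combination of genotype and title scheme were in the same state. Of these, 4 genes were named with the selection rule and are given first. Pcbd1 (probe set 10363455, chromosome 10), a dehydratase that recycles the cofactor tetrahydrobiopterin and also binds the transcription factor HNF1, was at 6.41, 6.32, 11.13 and 9.95 in the knockouts, against 10.002, 10.08, 8.09 and 6.51 in wild type. P2ry14 (probe set 10498350, chromosome 3), a receptor for UDP-glucose, was at 6.02, 6.12, 9.74 and 8.53 in the knockouts, against 8.83, 9.47, 6.85 and 7.04 in wild type. The D/F knockout samples and the RO wild-type samples were thus high for both genes. Emb (probe set 10407327, chromosome 13), embigin, a partner of monocarboxylate carriers and an adhesion protein, was at 4.63, 5.13, 4.38 and 4.90 in the knockouts, against 8.99, 8.93, 5.04 and 4.72 in wild type. Ctse (probe set 10349648, chromosome 1), the endosomal protease cathepsin E, was at 7.43, 6.98, 6.55 and 6.498 in the knockouts, against 10.999, 11.11, 7.14 and 6.33 in wild type. For Emb and Ctse the RO wild-type samples were the high ones, and the other 6 samples were at or below 5.13 and 7.43.

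**Figure D3:**
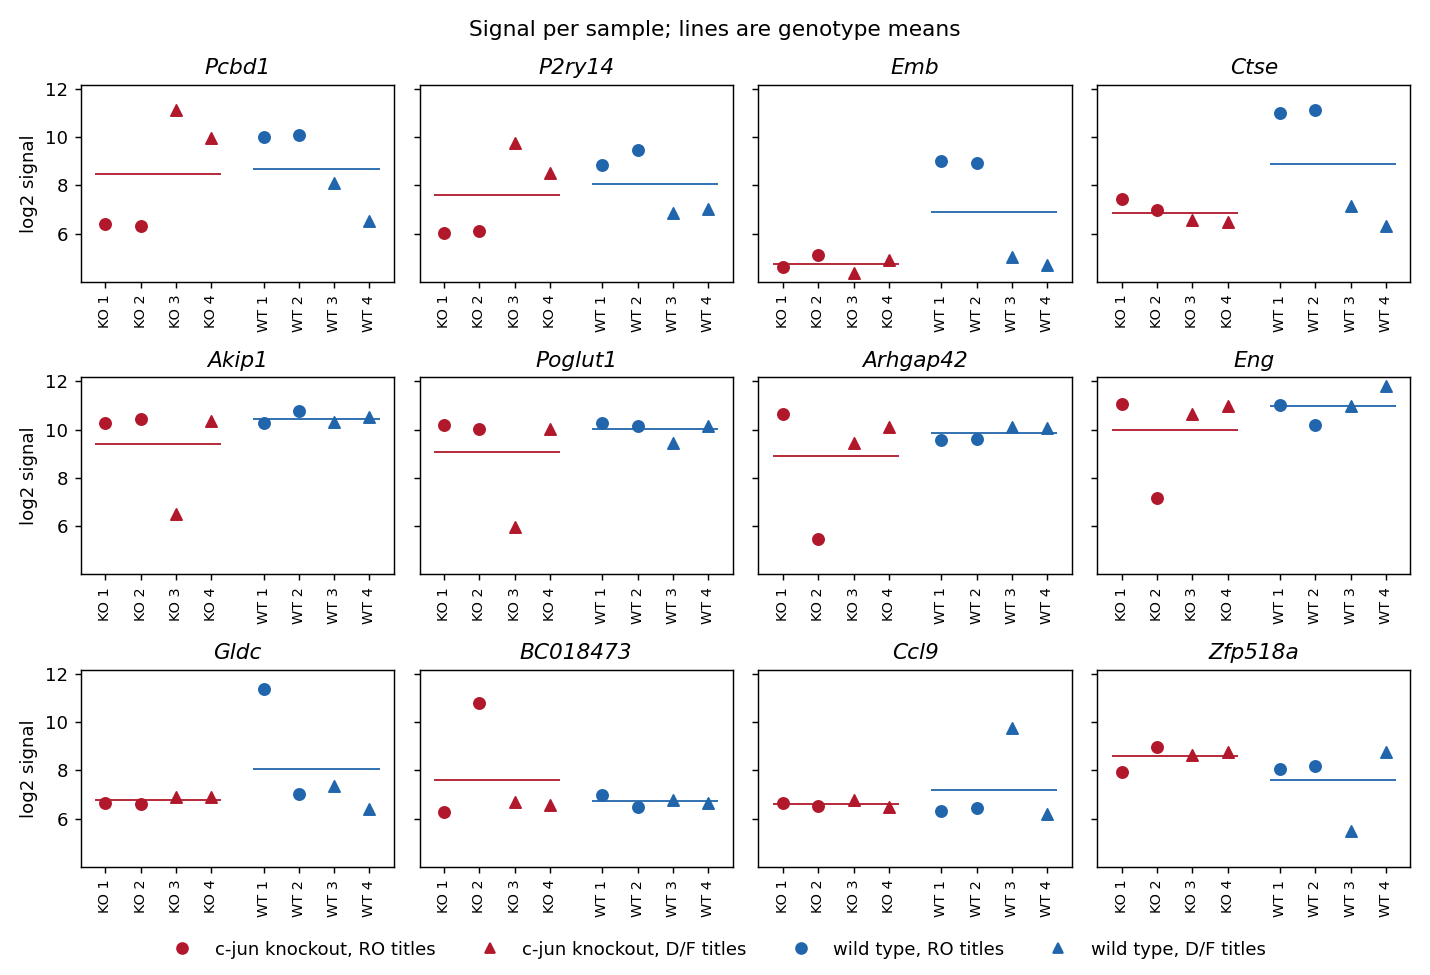
Log2 signal (vertical axis) of selected genes in each sample, with the 4 knockout samples (red) left of the 4 wild-type samples (blue), circles for RO titles and triangles for D/F titles. Pcbd1 and P2ry14 are high in knockout triangles and wild-type circles, Emb and Ctse in wild-type circles, and Akip1 and Poglut1 show 1 low knockout sample, number 3.

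The difference between the genotypes was computed within each scheme, with 2 samples on each side. For Pcbd1, knockout minus wild type was 3.24 in the D/F samples and -3.67 in the RO samples. P2ry14 gave 2.19 in D/F and -3.08 in RO. Emb gave -0.24 and -4.08, and Ctse -0.21 and -3.85, in D/F and RO. Of the 168 genes, 96, or 57.1%, had differences of opposite sign in the 2 schemes, against 55.9% of all genes. In 28, or 16.7%, both were also 1 log2 or more in size, against 0.246% of all genes, a share that the required range favours and from which nothing is read.

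The difference of these differences, D/F minus RO, was tested with limma across all 19937 genes. After Benjamini-Hochberg adjustment 5 genes had a positive interaction, 0.0251% of all genes, and 1 had a negative one, 0.00502%. All 6 are among the 168; since a wide range was a condition of the choice, this count is not independent evidence about them. At an unadjusted p under 0.05, 30 of the 168 were positive and 32 negative, against 3.42% and 1.96% of all genes. The interaction was 6.91 ± 0.67 (SE) for Pcbd1, with a limma adjusted p of 0.00634. P2ry14 had 5.27 ± 0.52 (limma adjusted p = 0.00634), Emb 3.84 ± 0.39 (limma adjusted p = 0.00634) and Ctse 3.64 ± 0.42 (limma adjusted p = 0.0142). S100a11, a calcium-binding S100 protein that was low in the RO knockout samples, had 2.84 ± 0.30 (limma adjusted p = 0.00690). Zfp938, a zinc finger protein low in the D/F knockout samples, had -3.28 ± 0.40 (limma adjusted p = 0.0185). Over all genes the median interaction was 0.26, and it was 0.02 after quantile normalization. The calls of Pcbd1, P2ry14, Ctse, S100a11 and Zfp938 were each lost under at least 1 alternative, with a highest limma adjusted p of 0.0691, 0.123, 0.0787, 0.261 and 0.199. The alternative that filtered out dim genes did not include Emb, which was at or below 5.13 in 6 samples, so its call was not tried there. Leaving out wild-type sample 1 ended the calls of Ctse and Zfp938. Those of P2ry14 and S100a11 ended without wild-type sample 3, and that of Zfp938 also without wild-type sample 4. Each such fit leaves 1 sample in a combination of genotype and scheme. Emb stayed under 0.05 in all 12 alternatives that included it, but in at least 1 of them only just.

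Promoter sequence was described from RefSeq entries of GRCm38.p6, which hold the 300 bases around a gene's start and matched 124 of the 168 genes. The 4 sequences below are shown because Pcbd1 and Emb followed genotype and scheme together, and Akip1 and Poglut1 were low in 1 sample; capitals mark each CG dinucleotide, the dinucleotide at which mouse DNA is mostly methylated. Pcbd1 lies at chr10:61089081-61089380 on the plus strand, Emb at chr13:117220323-117220622 (plus), Akip1 at chr7:109703428-109703727 (plus) and Poglut1 at chr16:38550207-38550506 (minus).
Pcbd1: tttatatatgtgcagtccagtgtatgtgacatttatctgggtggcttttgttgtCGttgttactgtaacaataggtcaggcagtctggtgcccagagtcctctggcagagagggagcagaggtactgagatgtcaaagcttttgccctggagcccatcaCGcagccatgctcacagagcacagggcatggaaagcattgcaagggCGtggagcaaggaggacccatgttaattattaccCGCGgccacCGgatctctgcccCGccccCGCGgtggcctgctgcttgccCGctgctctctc
Emb: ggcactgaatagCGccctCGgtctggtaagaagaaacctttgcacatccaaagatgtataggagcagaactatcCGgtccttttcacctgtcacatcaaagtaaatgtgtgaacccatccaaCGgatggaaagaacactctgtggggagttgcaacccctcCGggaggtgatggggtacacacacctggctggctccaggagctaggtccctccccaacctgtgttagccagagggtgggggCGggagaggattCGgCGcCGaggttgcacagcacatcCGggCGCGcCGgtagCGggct
Akip1: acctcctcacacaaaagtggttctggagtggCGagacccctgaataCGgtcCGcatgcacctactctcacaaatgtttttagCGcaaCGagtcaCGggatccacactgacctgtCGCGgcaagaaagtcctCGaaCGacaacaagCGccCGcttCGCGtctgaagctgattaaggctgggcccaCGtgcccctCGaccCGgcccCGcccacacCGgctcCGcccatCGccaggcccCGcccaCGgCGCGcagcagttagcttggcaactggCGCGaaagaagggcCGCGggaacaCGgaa
Poglut1: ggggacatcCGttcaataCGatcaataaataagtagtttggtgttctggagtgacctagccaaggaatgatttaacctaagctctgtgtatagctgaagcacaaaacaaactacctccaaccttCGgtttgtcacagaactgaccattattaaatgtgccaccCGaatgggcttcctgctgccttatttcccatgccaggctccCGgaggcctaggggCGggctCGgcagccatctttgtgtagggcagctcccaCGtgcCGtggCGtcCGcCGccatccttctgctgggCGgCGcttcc
They hold 10, 14, 30 and 14 CG dinucleotides. The median over the 124 genes was 12.5, against 15 over the 15562 measured genes with an entry. Genes high in 1 sample had a median of 8 and genes low in 1 sample a median of 13. TGANTCA, a pattern that takes in the letters bound by Jun-Fos dimers and others, was searched on both strands, where it reads the same with N free. With the first listed start of each gene, it was found in 16 of the 124, or 12.9%, against 6.97% of all promoters of this length. P2ry14 and S100a11 were among the 16, and the 4 sequences above hold no match. A match describes letters only, and methylation and binding were not measured here.

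The samples of S100a11 stood at 7.38, 7.63, 10.92 and 11.01 in the knockouts, against 9.67, 9.42, 10.15 and 10.17 in wild type. Zfp938 was at 8.66, 9.20, 6.77 and 6.39 in the knockouts, against 8.45, 8.39, 9.08 and 9.62 in wild type. Egln3, a prolyl hydroxylase that acts on hypoxia-inducible factors, shared the pattern of Zfp938, and Grb7, an SH2 adaptor, that of S100a11. Colec12, a scavenger receptor, and Ctnnd1, or p120 catenin, were high in the RO knockout samples alone. Gnpda2, which deaminates glucosamine phosphate, was low in the D/F wild-type samples alone.

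B3glct, Ccn3 and Ralgps2 were high in all RO samples and low in all D/F samples. Ralgps2, an exchange factor for Ral, was at 9.39, 8.76, 6.68 and 6.80 in the knockouts, against 8.88, 9.02, 7.43 and 6.32 in wild type. Ccn3, a matricellular protein, was at 9.86, 10.59, 6.59 and 6.63 in the knockouts, against 9.17, 8.98, 7.69 and 6.99 in wild type. B3glct, which adds glucose to O-linked fucose, was at 10.67, 9.93, 7.08 and 8.19 in the knockouts, against 9.93, 9.79, 8.53 and 8.36 in wild type. The D/F samples lay below the RO samples without overlap for 9 of the 168 genes, against 0.983% of all genes, and above them for 5, against 0.978%. In limma, 4 genes were lower in the D/F samples than in the RO samples after adjustment, 0.0201% of all genes, and 0 were higher (292 at an unadjusted p under 0.05). At that unadjusted threshold, 24 of the 168 genes were higher and 25 lower, against 1.46% and 1.66% of all genes. The wide range that chose the genes raises these counts, so nothing is read from them. Of the 4 called genes, those among the 168 were Ralgps2, at -2.20 ± 0.24 (SE, limma adjusted p = 0.0295), and Ccn3, at -2.68 ± 0.35 (limma adjusted p = 0.0350). The other 2 genes called, Olfr372 and Olfr373, named after their values were seen, are olfactory receptors outside the 168. The call of Ccn3 held in 6 of 13 alternatives and that of Ralgps2 in 9 of 13. Both ended with dim genes filtered out (limma adjusted p of 0.170 for Ccn3 and 0.110 for Ralgps2), without knockout sample 3 (0.0517 each), without wild-type sample 2 (0.0754 each) and without wild-type sample 4 (0.298 and 0.127), and that of Ccn3 also after quantile normalization (0.154), median centring (0.176) and without the mean-variance trend (0.0561).

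For the genotype difference itself, fitted with the title scheme as a term, 0 of the 168 genes passed limma with adjustment. At an unadjusted p under 0.05, 17 were lower and 3 higher in the knockout samples, against 1.72% and 0.537% of all genes. After adjustment 1 gene of the 19937, Pja1, named after its values were seen, was lower, 0.00502%, and 0 were higher (107 at an unadjusted p under 0.05). Genes that separated the genotypes were removed by the choice, so nothing is read from these counts. The mean over knockout samples was below that over wild-type samples in 103 of the 168 genes and above it in 65. The share of all genes that lay lower in the knockout samples was not counted. The median difference over all genes was itself below 0, at -0.11, so nothing is read from this count either.

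Genes high in several samples showed further combinations. Marcks, a substrate of protein kinase C, was at 9.43, 7.27, 9.60 and 5.32 in the knockouts, against 5.81, 5.71, 10.25 and 5.33 in wild type. Fn1, fibronectin, was at 7.25, 10.22, 10.06 and 7.03 in the knockouts, against 7.16, 9.34, 7.27 and 6.85 in wild type. Rnf130, a ubiquitin ligase, was at 6.30, 5.89, 10.79 and 6.31 in the knockouts, against 9.06, 8.74, 9.78 and 6.52 in wild type. Knockout sample 3 was high and knockout sample 4 low in all 3 genes, although these samples share genotype and scheme. Mt2, a metallothionein that binds zinc and copper, was at 12.26, 11.82, 8.45 and 10.78 in the knockouts, against 10.83, 7.34, 12.13 and 10.14 in wild type. Il7r, the receptor for the B-precursor growth factor interleukin 7, was at 12.40, 12.44, 9.75 and 8.96 in the knockouts, against 8.92, 11.64, 11.39 and 10.13 in wild type. Itgal, the alpha chain of the integrin LFA-1, was at 6.90, 9.45, 10.59 and 10.65 in the knockouts, against 9.999, 8.05, 10.43 and 10.54 in wild type. Il7r was high in the RO knockout samples and in wild-type samples 2 and 3. Itgal was low in knockout sample 1 and wild-type sample 2, and Mt2 in knockout sample 3 and wild-type sample 2.

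Other genes with a state in 2 to 6 samples are given by function. Membrane genes included Cd36, a fatty acid receptor, Il1r2, a decoy receptor for interleukin 1, Fzd6, a Wnt receptor, Nt5e, the ecto-nucleotidase CD73, and Cav2, a caveolin. Cytoskeletal and signalling genes included Dock8, an exchange factor for Cdc42, Plek, a substrate of protein kinase C in blood cells, Tes, a focal adhesion protein, Gng12, a G protein gamma subunit, and Inpp4b, a phosphoinositide phosphatase. Dock8 was at 6.55, 6.47, 6.79 and 9.66 in the knockouts, against 10.06, 9.32, 10.43 and 9.19 in wild type. Il1r2 was at 6.16, 6.36, 9.76 and 9.97 in the knockouts, against 8.14, 7.11, 8.85 and 9.14 in wild type. Dock8 was below 7 in knockout samples 1, 2 and 3 only, and Il1r2 was lowest in the RO knockout samples and wild-type sample 2. Enzymes and carriers included Cth, of cysteine synthesis, Hexa, a lysosomal hexosaminidase, Sult1d1, a sulfotransferase, Pde5a, a phosphodiesterase of cyclic GMP, and the transporters Slc14a1, Slc25a13 and Slc30a4. Ccnd1, cyclin D1, was at 8.64, 10.57, 11.75 and 10.76 in the knockouts, against 10.97, 8.53, 10.74 and 9.76 in wild type, lowest in knockout sample 1 and wild-type sample 2. Prdm8 and Tle5 are transcriptional regulators.

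Other genes with a state shared by 3 to 6 samples were Aim2, B3gnt2, Clec4a3, Cpne3, Cpne8, Cyyr1, Dglucy, Fstl1, Garem1, Gtpbp10, Hs3st1, Ica1, Jmjd8, Klhdc2, Pla2g4a, Rtn1, S100a6, Smim41, Tmem267, Uaca and Vat1l. Cpne3 and Cpne8 are copines, which bind phospholipids with calcium. Cpne3 was at 8.70, 9.62, 5.75 and 5.44 in the knockouts, against 8.05, 10.10, 8.19 and 6.81 in wild type. Cpne8 was at 8.79, 5.36, 5.72 and 5.54 in the knockouts, against 7.99, 8.12, 5.79 and 5.32 in wild type. Knockout sample 1 and wild-type samples 1 and 2 were high for both, and knockout samples 3 and 4 were low for both.

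The 17 graded genes had no gap of 1 log2 in spite of their range. They were Bank1, Cyth3, Gimap3, Gja1, Hvcn1, Ifi214, Itga9, Lrrc32, Lyz2, Mpzl2, Prkcq, Sdr39u1, Stard10, Syce2, Tbx19, Tgfb3 and Wnt10a. Lyz2, the myeloid lysozyme, was at 10.63, 10.64, 9.24 and 7.44 in the knockouts, against 8.33, 8.66, 9.93 and 8.35 in wild type. Gimap3, a GTPase of lymphocytes, was at 6.81, 8.99, 8.41 and 8.12 in the knockouts, against 9.13, 8.83, 7.80 and 9.83 in wild type. Lyz2 was highest in the RO knockout samples and lowest in knockout sample 4. Of the 22 measured myeloid genes, Lyz2 and Fcgr3 were the ones with a range of 2 log2 or more; the mean of the list was 6.63 to 6.89 in the knockout samples and 6.58 to 7.24 in the wild-type samples.

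Lists of related genes were set beside Pcbd1, P2ry14, Ctse and Emb. In the tetrahydrobiopterin cycle 9 genes were measured, of which Pcbd1 and Tph1 had wide ranges; Pcbd2, the paralog of Pcbd1, was at 9.12, 9.58, 9.45 and 9.31 in the knockouts, against 9.59, 9.59, 9.31 and 8.94 in wild type, and Gch1, the first enzyme of the pathway, had a range of 1.38. Among 14 purinergic receptors and neighbours, P2ry14 was the 1 gene with a range of 3 log2, and P2rx3 followed with 2.44. Among 15 cathepsins and related proteases, Ctse was followed by Ctsh with 2.11. Among Emb, its relatives and monocarboxylate carriers, 7 genes in all, Slc16a3 followed with 2.38. The patterns of Xist and the Y-linked genes were also set beside those of the 168. Xist was high in knockout samples 1 and 3 and in wild-type samples 3 and 4, and Eif2s3y in knockout sample 2 and wild-type samples 1 and 2. None of the 168 genes had the pattern of either gene or the reverse of that of Xist, and 1, Fzd6, had the reverse of that of Eif2s3y. Knockout sample 4 was low for both Xist and Eif2s3y, at 6.00 and 4.89. In wild type, both RO samples were high for Eif2s3y and both D/F samples for Xist, so title scheme and these genes coincide there. For differences between wild-type samples, as in Emb, Ctse and the wild-type part of the interaction, the 2 cannot be told apart.

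The agreement of samples over the 151 genes was counted for each of the 28 pairs. Knockout sample 4 and wild-type sample 4, both D/F, were in the same state in 116 genes, the highest count. Wild-type samples 1 and 2 followed with 115 and wild-type samples 2 and 4 with 110. The lowest counts were 79 for knockout sample 2 and wild-type sample 3 and 80 for knockout samples 1 and 3. Pairs of the same genotype and scheme had a median of 100.5 genes in the same state, pairs of the same scheme alone 98, pairs of the same genotype alone 88 and pairs that shared neither 97.5. The ranges of these classes overlapped, at 92 to 115, 83 to 116, 80 to 110 and 79 to 103. Within a combination, the samples were in different states for 50 genes in the D/F knockouts, 51 in the RO knockouts, 59 in the D/F wild types and 36 in the RO wild types. In a gene that set 1 sample apart, every pair without that sample was in the same state. The 76 such genes are in all these counts and favour samples rarely set apart. They numbered 0 for wild-type sample 2, 5 for wild-type sample 4 and 6 for knockout sample 4. For the other samples they numbered 11 to 15. Counts without the 76 genes were not made, so no likeness between samples is read from the counts.

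**Figure D4:**
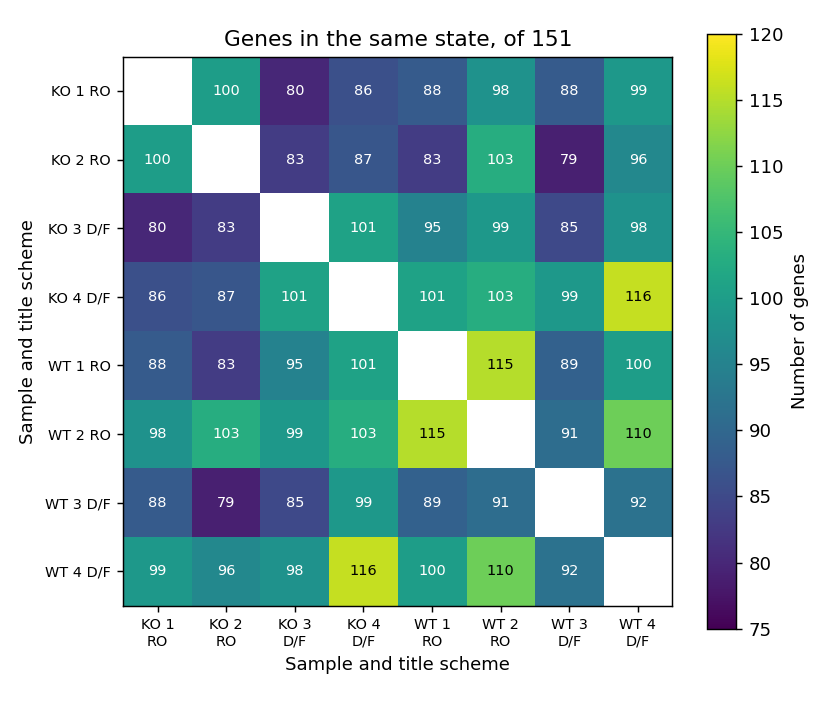
Number of the 151 genes (colour and printed count) for which the row sample and the column sample were in the same state, with the knockout samples (KO) before the wild-type samples (WT) and the title scheme under each. The highest count is 116 for knockout 4 and wild type 4, and the lowest is 79 for knockout 2 and wild type 3.

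A check on values that the choice did not use came from 12 further probe sets of 10 of the genes. In 9 of the 12 every sample called high lay above every sample called low. In 11 the mean of the high samples was above that of the low samples. Among the 9, Arhgap42 had 5.35 in knockout sample 2, against 8.26 to 9.40 in the other 7 samples. Plscr1 had 6.57 in knockout sample 3, against 9.26 to 10.73. The 3 exceptions were both further probe sets of Ighm and 1 of Erc1. These probe sets were read on the same arrays and some may share probes with the first.

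Position along the chromosomes was examined through the gene order of the assembly GRCm38.p6. Within 5 measured positions of each other lay 14 pairs made of 24 of the genes. The number for genes drawn without regard to position was not counted, so no clustering is read from this. Of the pairs, 1, Plscr4 and Plod2 on chromosome 9, had the same pattern. In that stretch Plscr1, Plscr4 and Plod2 were low in knockout sample 3 and Plscr2, between them, was high. The genes on either side did not stand apart in that sample, Zic4 at 6.86 in knockout sample 3, against 6.46 to 7.25 in the other 7, and Dipk2a at 8.24, against 7.75 to 8.27. Zic4 was near or below the array medians, 6.93 to 7.42, so a low state could hardly show there. Scramblase genes are similar in sequence, so exchange of signal between their probe sets is possible. On chromosome 1, Rgs18 and Pla2g4a, a cytosolic phospholipase, were lowest in knockout sample 2, with Brinp3 between them at 5.61, against 5.63 to 6.33. Rgs1, near Rgs18, was also lowest in that sample at 5.75, against 6.73 to 7.92.

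**Figure D5:**
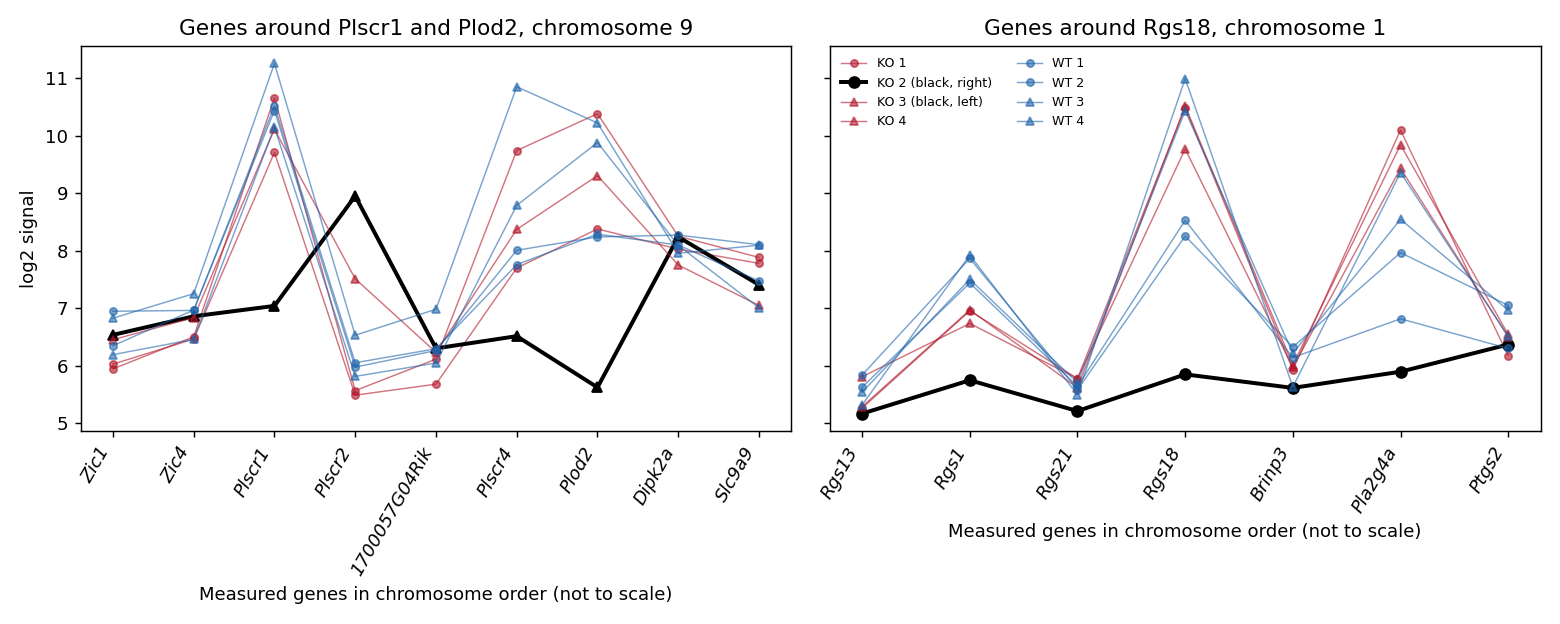
Log2 signal (vertical axis) of measured genes in their chromosomal order (horizontal axis, spacing not to scale) around Plscr1 and Plod2 (left) and around Rgs18 (right), 1 line per sample, knockout in red and wild type in blue, with the sample that stands apart in black. Knockout sample 3 is lowest at Plscr1, Plscr4 and Plod2 and highest at Plscr2. It is not set apart at the flanking Zic4, which is dim in all samples, or at Dipk2a. Knockout sample 2 is lowest at Rgs18, Pla2g4a and Rgs1.

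Of 296 directly adjacent measured genes that are not among the 168, 10, or 3.38%, were higher by 1 log2 or more in the samples in which the neighbouring gene was high. Over all measured genes the same was true of 0.697% on average. In the opposite direction 1 adjacent gene, Gask1b beside Gria2, differed by that much. The share of all genes in that direction was not counted, so the directions are not compared. St6galnac2, a sialyltransferase, next to BC018473, was at 9.76 in knockout sample 2, against 7.33 to 7.92 in the other 7. Ighg3, an immunoglobulin constant region beside Ighm, was at 9.03, 6.22, 7.49 and 7.55 in the knockouts, against 6.14, 7.05, 8.64 and 6.62 in wild type, so wild-type sample 3, in which Ighm was low, was nearly as high as knockout sample 1. F630111L10Rik, beside P2ry14, was 1.42 higher in the samples in which P2ry14 was high. Sh2d1b2 beside Sh2d1b1, Ifi208 beside Ifi209 and Ifitm3 beside Ifitm1 are similar pairs whose probe sets may share signal. The genes adjacent to Akip1, Poglut1, Arhgap42, Zfp518a, Tmbim4, Eng and Gldc differed by less than 1 log2.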

How the data were processed

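RNA of 8 samples was measured on 1 MoGene 1.0 ST array each; per the labels' protocols, 200 ng was amplified with random primers and labelled with biotin. The authors deposited log2 values for 34760 probe sets, and the submitters' processing notes name MAS5, without version or settings, for this array type that lacks mismatch probes; further steps have no entry in the labels. From the values, each array had been scaled to a 2% trimmed linear mean of 500. Of the probe sets, 21640 carried 1 gene symbol in the platform annotation, and the one of highest mean stood for each of 19937 genes. Members and gene lists were chosen with earlier results of these data known. Tests used limma 3.58.1 in R 4.3.3 (lmFit, eBayes with a mean-variance trend) on the log2 values, with genotype and title scheme as terms (5 residual degrees of freedom) or with their interaction (4), and Benjamini-Hochberg adjustment over all genes at 0.05; the procedure was tested on simulated data. SEs are those of limma's moderated coefficients. Genes named with full values were the 4 given with the selection, the 12 of widest range, the 3 of widest gap in each pattern held by 3 or more genes, and those in a fixed list; some others are given beside them, chosen after their values were seen. The 20 lists covered the B lineage, other blood and stromal cell types, sex-linked genes and pathways or families of some members; the text gives those that bear on a member it names. Alternatives were other scalings (quantile, median-centred), averaging all probe sets of a gene, no trend, a filter on dim genes, other range and gap thresholds, the fit without the second term, and leaving out each sample.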

Additional observations from a re-analysis of the deposited data

Results flagged for a closer look

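A sample was looked at again where its gap to the nearest sample of its own genotype was large against the range of that genotype, by Dixon's 95% critical value for 4 samples. This marked 41 values in 39 genes among 336 combinations of gene and genotype, or 12.2%. Chance alone marks about 1 in 20 groups of normally distributed values. The share over all genes was not counted. A range of at least 3 log2 without separation of the genotypes was a condition of the choice and favours such values, so nothing is read from the 12.2%. The values below are log2 signals, and the cause of each was not tested.

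In knockout sample 1 the marked values were 8.79 for Cpne8, 10.06 for Gng12, 9.97 for Ighm, 9.97 for Ly6f, 9.45 for Smoc1 and 10.05 for Vat1l, all the highest of the 4 knockouts, and 9.20 for Rnf125, the lowest. In knockout sample 2 they were 10.77 for BC018473 and 9.62 for Pde5a on the high side, and 7.18 for Eng, 8.28 for Fads2, 5.89 for Pla2g4a and 5.85 for Rgs18 on the low side. Knockout sample 3 had high values of 7.89 for Klrd1, 9.23 for Klri1, 10.79 for Rnf130 and 10.91 for Zcwpw1. It had low values of 6.49 for Akip1, 7.79 for Atox1, 5.96 for Poglut1 and 6.68 for Zfp770. Knockout sample 4 had high values of 9.66 for Dock8, 9.92 for Rgs7bp, 10.98 for Rps4l, 8.23 for Snx7 and 8.61 for Tgfb3.

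Wild-type sample 1 had high values of 10.52 for Aldoc, 9.30 for Lmo7, 10.05 for Stag3, 9.58 for Tph1 and 10.43 for Tppp3 among the 4 wild types. In wild-type sample 2, Fn1 was high at 9.34 and Grb7 low at 9.22. Wild-type sample 3 had high values of 9.77 for Ccl9, 10.43 for Fcrl6, 10.70 for Gsn, 10.54 for Klrb1c, 10.25 for Marcks, 10.41 for Smoc1 and 8.73 for Snx7. In wild-type sample 4 the marked value was 7.12 for Plek, the lowest.

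The genotype difference itself differed between the title schemes in 6 genes by the limma interaction term. The interaction, D/F minus RO, was 6.91 for Pcbd1, 5.27 for P2ry14, 3.84 for Emb, 3.64 for Ctse, 2.84 for S100a11 and -3.28 for Zfp938.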

How the results depend on the processing

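With a range threshold of 2.5 log2 in place of 3, 313 genes qualified, and with 3.5, 96. Quantile normalization left 171 genes, 157 of them among the 168, and centring each array on its median 163, 145 of them shared. Leaving out each sample gave 135 to 161 genes. Genes that set 1 sample apart numbered 76, 38 when divided at the midpoint and 50 when a gap of 1.5 was required. For the genotype difference the count of called genes was 1, it was 0 with dim genes filtered out, and leaving out each sample gave 0 to 2 (2 without knockout samples 1 or 4 or wild-type sample 3, 0 without wild-type samples 1, 2 or 4). For the title scheme difference it was 4, then 0 with dim genes filtered out, and 0 to 18 when a sample was left out (18 without knockout sample 2, 0 without wild-type samples 2 or 4). For the interaction it was 6, then 2 after quantile normalization, 0 with dim genes filtered out and 6 to 38 when a sample was left out (38 without wild-type sample 2); a combination left with 1 sample was assumed to vary like the others. For the 6 genes called in the interaction 60 of 77 alternative values kept their call and 17 lost it, with none reversed, and for the 2 genes called between schemes 15 of 26 kept it and 11 lost it (Ccn3 7 of 13, Ralgps2 4 of 13). The ranges of the 62 genes given in full moved by less than 1 SD, the larger of a gene's SDs within a genotype, in 651 of 682 cases. The wide range that chose the genes makes that SD large, so no stability is read from this count. Under the other scalings and with probe sets averaged, 56 of the 62 genes kept a range of 3 log2 or more, and the lowest range was 1.39. Other scalings moved the median difference of all genes, for genotype to 0.04 (centred) and for the interaction to -0.09. The causes were not tested. No paired analysis was possible because the labels carry no replicate numbers.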

Other observations

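Counts of members in the other gene lists examined are given here beside the 0.843% of all measured genes that are members; the lists were written with earlier results of these data known. Among 14 SLAM and killer-lectin genes, Slamf7 and Klrd1 had a range of 3 log2 or more and 6 genes one of 2 or more, with a median range of 1.76. The mean signal of that list, with Slamf7 and Klrd1 in it, was 8.09 to 8.50 in the knockout samples and 7.89 to 9.16 in wild type. It was highest in wild-type sample 3, which also had the highest array median. Itgal was the 1 member among 21 integrin and adhesion genes, Ccl9 among 21 chemokine genes, Gimap3 among 8 GIMAP genes, Mgst1 among 17 glutathione and detoxification genes, Car2 among 10 erythroid and megakaryocyte genes and Fn1 among 12 stromal genes. Of 17 B-lineage genes, 4 had a range of 3 or more and 6 one of 2 or more; Il7r was a member, and Rag1, Rag2 and Dntt, with ranges of 4.26, 3.81 and 3.40, were left out by name. Of 14 genes of mature B and plasma cells, 6 had a range of 2 or more, and H2-Ab1 and Ighm were members. No gene reached a range of 2 log2 among 23 interferon-stimulated genes, 12 stem and progenitor genes, 16 imprinted or testis-restricted genes and 21 further B-lineage surface and signalling genes. Of the 4 sex-linked genes measured, 3 had a range of 3 or more.

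Ccl6, a chemokine related to Ccl9, was at 6.48, 6.54, 6.58 and 6.996 in the knockouts, against 6.97, 6.91, 8.52 and 6.58 in wild type, so wild-type sample 3 was highest for both. Bex3, an X-linked adaptor gene left out of the set, was low in knockout sample 1 alone, at 6.23, against 10.70 to 11.04 in the other 7 samples. Tmem47, also X-linked, was high in knockout sample 3 alone, at 10.23, against 5.73 to 6.76.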
